A study of Sus scrofa with 2 samples.

Results

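Mitochondrial fatty acid oxidation was followed through 29 gene symbols, taken as a list of the pathway's carriers, enzymes and regulators and looked up in the gene names of both matrices. Of these, 28 symbols were found among 31908 genes, and the symbol of ECI1, an enoyl-CoA isomerase, was not matched. The measurements are single-nucleus RNA sequencing of the free wall of the left ventricle in Bama pigs, a miniature breed. WT is 1 library from wild-type tissue, and TG is 1 library from tissue with 3 transgenes together, PNPLA3I148M (a variant of a lipid droplet lipase), GIPRdn (a blocking form of the receptor for GIP, an incretin hormone) and hIAPP (the human islet amyloid peptide). Both libraries come from a diet high in fat and sucrose given for 12 months, so neither is a lean control. The promoters of the transgenes, the ages and the number of animals behind a library are not given in the sources used here.

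Heart muscle draws most of its energy from long-chain fatty acids. An acyl-CoA synthetase activates the fatty acid, the carnitine shuttle carries the acyl group across the inner mitochondrial membrane, and a cycle of dehydrogenation, hydration, a further dehydrogenation and thiolysis shortens it to acetyl-CoA. Electrons pass to the respiratory chain through the electron transfer flavoprotein, malonyl-CoA brakes the shuttle at its entry, and the nuclear receptors PPARA, PPARD and ESRRA with the coactivator PPARGC1A drive transcription of the pathway.

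The WT library kept 16725 nuclei with a median of 5442 UMIs (unique molecular identifiers, counted RNA molecules), and the TG library 14939 nuclei with a median of 3937. The libraries shared 81 barcodes, 0.444% of those in WT and 0.54% of those in TG. Nuclei were clustered together and clusters named from marker genes, and each name carries "-like" since it rests on marker transcripts. Cardiomyocyte-like nuclei numbered 6918 in WT and 5368 in TG, and 8 further classes had at least 100 nuclei in each library. Mixed clusters, with markers of unrelated classes, held 11.0% of the nuclei in WT and 13.8% in TG and were set aside. Levels are counts summed over the nuclei of a class, per 1000000 nuclear-encoded UMIs (CPM), with 95% intervals of counting error. Each genotype has 1 library, which leaves no replicate check and no test, and every ratio compares these libraries, since genotype and library cannot be told apart. A gene was taken as measured from 20 UMIs upwards, both libraries together, and it was called higher or lower in TG at a ratio of at least 1.5 whose interval left out 1. Smooth muscle-like nuclei, 210 in WT and 13 in TG, were not compared.

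In cardiomyocyte-like nuclei most of the pathway lay within 1.5-fold between the libraries, with ACSL1 at its entry lower and ACADM in its middle higher in TG. Of 27 measured genes, 2 were called higher (ACADM and UCP3), 3 lower (ACSL1, ECHS1 and ESRRA) and 22 neither. The same rule called 25% of 18925 measured genes of this class higher and 8.81% lower. The share of pathway genes called higher, 7.41%, was below that of all genes, and the share called lower was near it. The median log2 ratio was -0.26 over the pathway and 0.08 over all measured genes. Summed over its 22 carriers and enzymes, ETFB included, the pathway stood at 2500 CPM in WT against 2364 CPM in TG, a ratio of 0.945 (0.938 to 0.952).

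At the activation and carnitine steps, ACSL1 stood apart from the 5 other genes. ACSL1, the long-chain acyl-CoA synthetase of heart muscle (Sscrofa11.1, chr15:45866858-45936327), was at 438 CPM in WT against 222 CPM in TG, from 32976 and 10411 UMIs. Its ratio was 0.507 (0.496 to 0.519), the lowest of the measured pathway genes in this class. CPT1B, the muscle form of the transferase that starts the carnitine shuttle (chr5:155552-163536), was at 113 and 108 CPM, a ratio of 0.961 (0.928 to 0.995). CPT1A, the form of liver and many other tissues (chr2:4250642-4293914), was at 9.26 and 13.7 CPM, and its ratio of 1.48 (1.33 to 1.65) fell just short of the call. SLC25A20, which exchanges acylcarnitine for carnitine across the inner membrane, measured 37.7 and 36.0 CPM, and CPT2, which returns the acyl group to CoA, 16.1 and 18.3 CPM. CRAT, the carnitine acetyltransferase that buffers acetyl-CoA, was at 22.2 and 18.2 CPM, a ratio of 0.821. The step as a whole summed to 636 CPM in WT against 416 CPM in TG, with ACSL1 the only gene called.

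**Figure D1:**
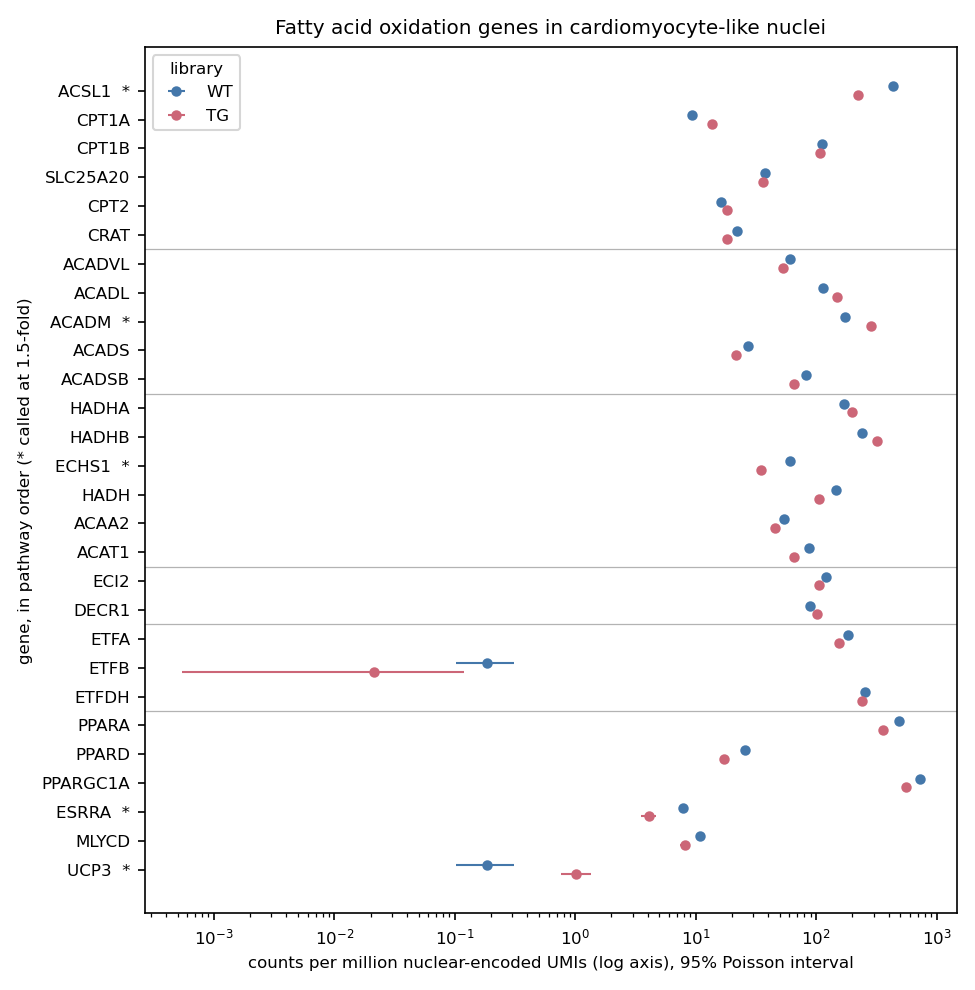
Levels of the 28 genes in cardiomyocyte-like nuclei of WT and TG, in CPM on a log axis with 95% Poisson intervals, in pathway order with lines between steps and stars at the 5 genes called. ACSL1 lies at 438 and 222 CPM and ACADM at 172 and 286 CPM, while most pairs of points lie close together.

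The acyl-CoA dehydrogenases, which open each turn of the cycle and are named by chain length, did not move alike. ACADM, the medium-chain enzyme (chr6:137541481-137575544), was at 172 CPM in WT against 286 CPM in TG, a ratio of 1.66 (1.62 to 1.70), and was called higher. ACADL, the long-chain enzyme, was at 114 and 149 CPM, a ratio of 1.31 that was not called. ACADVL, the very-long-chain enzyme (chr12:52573521-52581755), was at 60.7 and 52.7 CPM, a ratio of 0.868. ACADS, for short chains, had a ratio of 0.801 and ACADSB, for short branched chains, 0.807. The intervals of the last 3 left out 1 on the low side, so counting error alone does not cover the spread from 0.801 to 1.66 among enzymes of a single step. The summed step was at 456 CPM in WT against 576 CPM in TG.

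Past the dehydrogenases, the trifunctional protein and the short-chain enzymes lay on opposite sides of 1. HADHA and HADHB, the alpha and beta subunits of the trifunctional protein that handles long acyl chains, were at 169 and 242 CPM in WT and at 197 and 322 CPM in TG. Their ratios were 1.17 (1.13 to 1.20) and 1.33 (1.30 to 1.36), neither of them called. Their RefSeq spans on chromosome 3, 112712894 to 112753121 for HADHB and 112753343 to 112797627 for HADHA, leave a gap of 221 bases between them. ECHS1, the short-chain enoyl-CoA hydratase (chr14:141340320-141348870), was at 61.2 CPM in WT against 34.6 CPM in TG, a ratio of 0.566 (0.534 to 0.599), and was called lower. HADH, the short-chain hydroxyacyl-CoA dehydrogenase, was at 145 and 106 CPM, a ratio of 0.729. The thiolases ACAA2 and ACAT1, which cleave off acetyl-CoA, had ratios of 0.834 and 0.745. The step summed to 760 and 770 CPM, a ratio of 1.01 made of genes on both sides of 1.

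The auxiliary enzymes for unsaturated chains and the electron carriers held no call. ECI2, an enoyl-CoA isomerase, was at 121 CPM in WT against 106 CPM in TG, and DECR1, the dienoyl-CoA reductase, at 88.8 and 102 CPM. ETFA, a subunit of the electron transfer flavoprotein, was at 185 and 154 CPM, a ratio of 0.832. ETFDH, which hands its electrons to ubiquinone, was at 254 and 239 CPM, a ratio of 0.943. ETFB, the partner subunit of ETFA, had 14 UMIs in WT and 1 UMI in TG and did not count as measured in any class.

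Each of the measured regulators other than UCP3 was at a lower level in TG, and of these ESRRA alone passed the 1.5-fold rule. PPARA, the receptor that fatty acids activate, was at 492 CPM in WT against 362 CPM in TG, a ratio of 0.737 (0.723 to 0.750). PPARGC1A (chr8:17841844-18527953) was at 724 and 557 CPM, a ratio of 0.770 (0.758 to 0.781). PPARD, a broadly expressed relative of PPARA, was at 25.6 and 17.3 CPM, a ratio of 0.677 (0.623 to 0.736). With TMM scaling it passed the 1.5-fold rule, at a log2 ratio of -0.66. ESRRA, an orphan receptor that acts with PPARGC1A, was at 7.83 and 4.07 CPM from 590 and 191 UMIs, a ratio of 0.520 (0.439 to 0.613). With nuclei thinned to 1000 UMIs its log2 ratio of -0.74 did not pass the rule. MLYCD, which degrades malonyl-CoA, was at 10.8 and 8.15 CPM, a ratio of 0.756. UCP3, a muscle carrier of the inner membrane, had 14 UMIs in WT and 48 UMIs in TG, a ratio of 5.51 (2.99 to 10.8) that rests on few molecules.

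Most cardiomyocyte-like nuclei of the libraries fell into different clusters, and the levels of ACSL1 and ACADM differed between libraries within and across those clusters. Cluster 0 held 4698 WT and 58 TG nuclei, cluster 1 held 36 and 3381, cluster 13 held 24 and 998, and cluster 2 held nuclei of both, 2160 from WT and 931 from TG. ACSL1 was at 439.5 CPM in cluster 0 and 433 CPM in cluster 2 of WT, and at 222, 219 and 224 CPM in clusters 1, 2 and 13 of TG. ACADM was at 173 and 168 CPM in those WT clusters and between 281 and 303 CPM in the TG clusters. Within cluster 2 alone the ratio was 0.505 (0.474 to 0.538) for ACSL1, 1.80 (1.69 to 1.92) for ACADM and 0.593 (0.508 to 0.689) for ECHS1. ESRRA, at 0.616 (0.378 to 0.963), was called there as well. In that cluster CPT1A (1.73), HADHB (1.52) and PPARD (0.645) also passed the 1.5-fold rule, MLYCD was on the higher side in TG (1.35), while UCP3 had 4 and 2 UMIs there and could not be measured. CPT1B differed among TG nuclei, with 143 CPM in cluster 2 against 104 and 102 CPM in clusters 1 and 13. ACADVL did as well, at 80.8 CPM against 49.7 and 48.1 CPM.

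**Figure D2:**
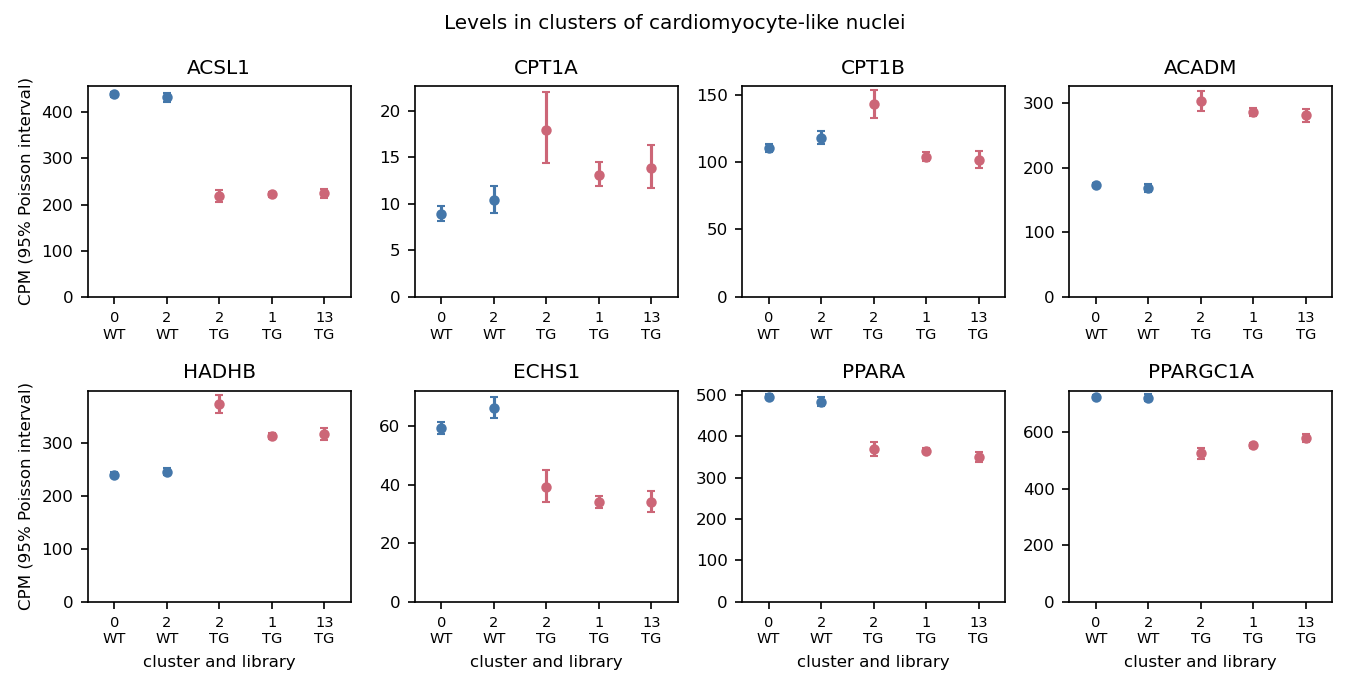
Levels of 8 genes in the clusters of cardiomyocyte-like nuclei with over 100 nuclei of a library, in CPM with 95% Poisson intervals, WT in blue and TG in red. ACSL1 sits near 439.5 and 433 CPM in both WT clusters and between 219 and 224 CPM in the TG clusters, and PPARGC1A lies between 526 and 580 CPM in TG.

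The share of cardiomyocyte-like nuclei with a UMI followed the levels. With each nucleus thinned to 1000 UMIs, 34.1% of WT nuclei (33.0% to 35.2%, exact Clopper-Pearson interval) and in TG 18.9% (17.9% to 19.96%) had an ACSL1 UMI. Unthinned, at median depths of 9996.5 and 7632.5 UMIs, the shares were 88.4% and 70.5%. ACADM was seen in 15.7% of thinned WT and 24.8% of thinned TG nuclei, and in 68.3% and 78.6% unthinned. PPARGC1A was seen in 45.6% and 39.0% of thinned cardiomyocyte-like nuclei, against 1.07% and 1.58% of thinned macrophage-like nuclei, a class not known for it (median depths 3912 and 2691 UMIs). Thinning left out 127 WT and 0 TG nuclei of the cardiomyocyte-like class.

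Several values that describe the class as a whole moved together with these ratios. A single gene without a symbol, ENSSSCG00000048856, took 6.36% of cardiomyocyte-like UMIs in WT and 13.9% in TG. Leaving it out of the totals shifts every log2 ratio of the class up by 0.12, which brings CPT1A to a log2 ratio of 0.69 and over the 1.5-fold rule. TMM scaling shifts every log2 ratio by -0.10 in this class, by -0.14 in fibroblast-like and by -0.17 in macrophage-like nuclei, and by less than that in the other classes. The 9 cardiomyocyte markers found summed to 43284 CPM in WT against 33914 CPM in TG, and 1 of the 9 was higher in TG. Fibroblast markers summed to 88.5 and 240 CPM and vascular endothelial markers to 102 and 106 CPM in the same nuclei. The part of these in the ratios of the pathway genes was not tested.

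Over the 9 classes, the order of levels placed most pathway genes highest in cardiomyocyte-like nuclei. ETFB and UCP3 were too rare for this. Of the 26 other genes, 19 had their highest level there in WT and 14 in TG, and 13 had it in both libraries. In 13 of the 19 in WT and 9 of the 14 in TG the interval lay clear of the next class. The 13 genes were ACSL1, CPT1B, SLC25A20, ACADL, HADHA, HADHB, HADH, ECI2, ETFA, ETFDH, PPARA, PPARGC1A and MLYCD. ACADM, ACADVL, ACAA2, ACADSB, ACAT1 and ESRRA were highest in cardiomyocyte-like nuclei in WT only, and DECR1 in TG only. CPT1A, CPT2, CRAT, ACADS, ECHS1 and PPARD were highest in another class in both libraries.

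The regulators PPARGC1A and PPARA spanned the widest range over classes. PPARGC1A was at 724 CPM in cardiomyocyte-like nuclei of WT, followed by Schwann or neural-like nuclei at 217 CPM, and reached its lowest level, 13.5 CPM, in vascular endothelial-like nuclei, a 53.6-fold range. In TG it ran from 557 CPM down to 17.6 CPM in macrophage-like nuclei. PPARA ran from 492 to 15.7 CPM in WT and from 362 to 14.6 CPM in TG. Its levels in T or NK lymphocyte-like nuclei (142 and 184 CPM), pericyte-like nuclei (143 and 164 CPM) and Schwann or neural-like nuclei (142 and 140 CPM) lay between these ends. Those 3 classes also held the cardiomyocyte markers at 29.0%, 33.5% and 28.8% of their cardiomyocyte level in WT and at 53.4%, 63.7% and 60.6% in TG (medians over 9 markers). The enzymes spread less than PPARGC1A and PPARA, but not alike. ETFA, among the more even ones, lay between 98.1 and 185 CPM over the 9 classes of WT. CPT1A spread more widely than ETFA, from 83.7 CPM in vascular endothelial-like nuclei of WT to its lowest level in cardiomyocyte-like nuclei.

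CPT1A and CPT1B, which catalyse the same step, had opposite orders over the classes. CPT1A was lowest in cardiomyocyte-like nuclei in both libraries and highest in vascular endothelial-like nuclei, at 83.7 CPM in WT (75.4 to 92.6) and 146 CPM in TG (139 to 154). In WT its level in pericyte-like nuclei, 77.8 CPM, did not differ from that beyond the intervals. CPT1B was highest in cardiomyocyte-like nuclei, and the next class, T or NK lymphocyte-like nuclei, stood at 40.6 CPM in WT against 68.0 CPM in TG. That class held the cardiomyocyte markers at medians of 29.0% and 53.4% of their cardiomyocyte level. Their part in its CPT1B level and CPT1A share was not tested. Of the UMIs of both genes together, CPT1A took 7.60% in cardiomyocyte-like nuclei of WT (exact Clopper-Pearson interval 7.07% to 8.16%) and 11.3% in TG (10.5% to 12.1%). In vascular endothelial-like nuclei it took 81.6% (77.7% to 85.0%) and 80.4% (78.4% to 82.3%), and in the other 7 classes between 43.8% and 74.3%. These shares serve to compare classes, since UMIs of different genes were not put on a common length.

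PPARD had an order of its own, with its highest level in macrophage-like nuclei, at 107 CPM in WT against 108 CPM in TG, a ratio of 1.01. In WT the lymphocyte-like and lymphatic endothelial-like nuclei followed at 77.7 and 72.7 CPM, and cardiomyocyte-like nuclei came last at 25.6 CPM. PPARD was called lower in TG in fibroblast-like nuclei, with 36.5 CPM from 384 UMIs in WT and 13.2 CPM from 74 UMIs in TG, a ratio of 0.361 (0.278 to 0.464). It was also called lower in T or NK lymphocyte-like (0.530), pericyte-like (0.520) and Schwann or neural-like nuclei (0.456). These 3 calls were lost with the library-wide profile taken off, at log2 ratios of -0.44, -1.36 and -1.01. Few genes of any kind were called lower in these classes after it. The shares of all genes were 4.01%, 2.01% and 0.204%, against 14.5%, 9.96% and 9.63% before. The lymphocyte-like call was also lost on thinning (-0.44), when the Schwann or neural-like counts fell short of 20 UMIs. In dendritic-like nuclei it was called higher, at 59.2 and 102 CPM, a ratio of 1.72 (1.21 to 2.47). The dendritic-like cluster differed in its makeup, since dendritic markers summed to 2607 CPM in WT against 527 CPM in TG there and macrophage markers to 495 and 2652 CPM. Whether that shift moved PPARD was not tested. With nuclei thinned to 1000 UMIs the log2 ratio of PPARD in this class was -0.39, and at a Leiden resolution of 0.5 it was 0.06.

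**Figure D3:**
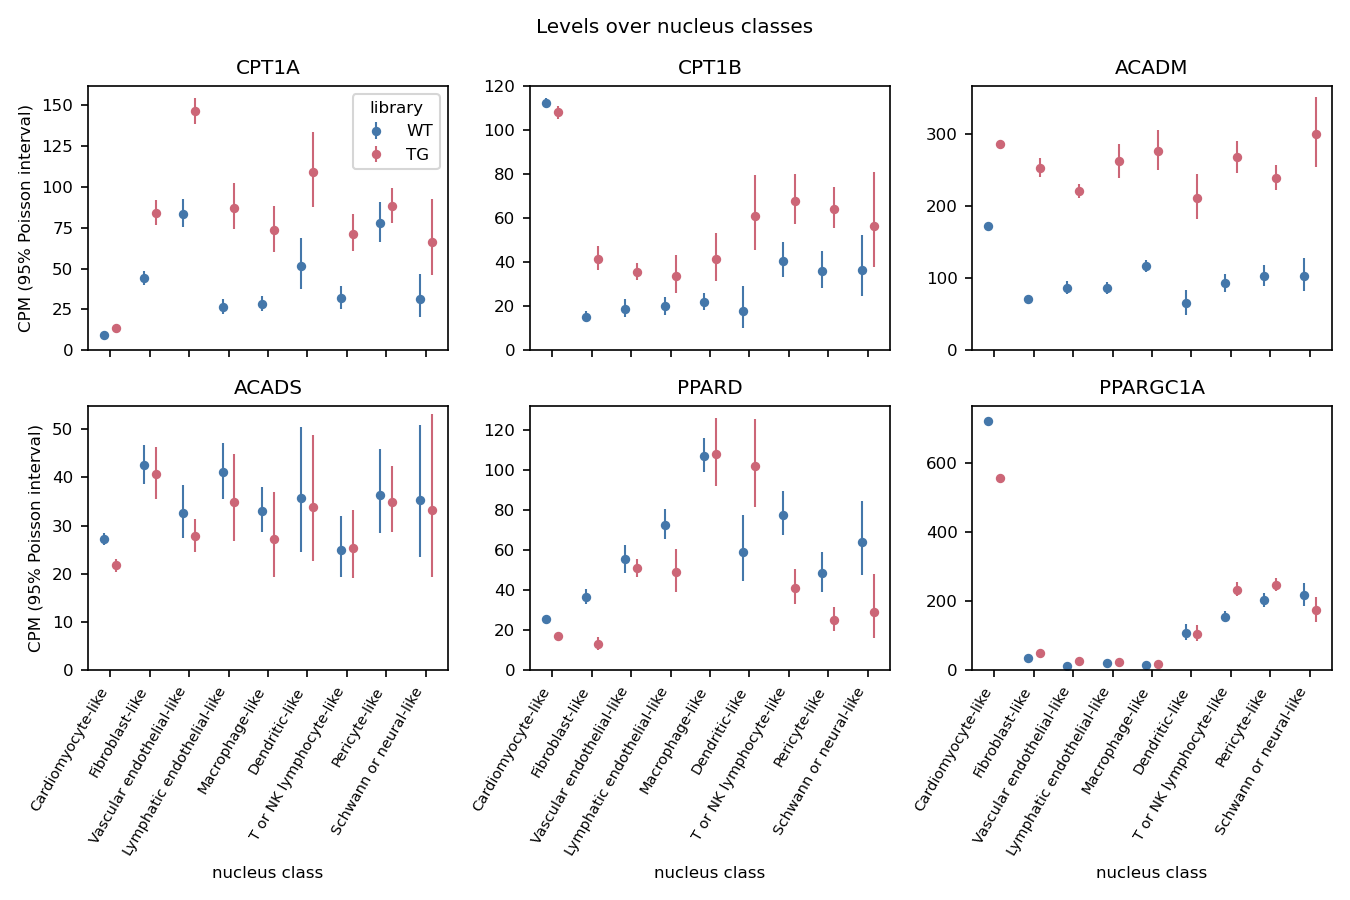
Levels of 6 genes over the 9 nucleus classes in WT (blue) and TG (red), in CPM with 95% Poisson intervals and each axis starting at 0. CPT1A is lowest and CPT1B highest in cardiomyocyte-like nuclei, PPARD peaks at 107 and 108 CPM in macrophage-like nuclei, and every TG point of ACADM lies above the WT point of the same class.

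Outside cardiomyocyte-like nuclei, part of the pathway was higher in TG in nearly every class and another part in none. In fibroblast-like nuclei 10 of 26 measured genes were called higher, where 17.9% of all measured genes were. The counts called higher were 11 of 26 in vascular endothelial-like nuclei (12.7% of all measured genes), 8 of 25 in lymphatic endothelial-like nuclei (11.6%) and 10 of 26 in macrophage-like nuclei (15.9%). They were 8 of 24 in dendritic-like nuclei (16.3%), 10 of 26 in T or NK lymphocyte-like nuclei (17%), 8 of 26 in pericyte-like nuclei (13%) and 6 of 24 in Schwann or neural-like nuclei (11.3%). PPARD was the 1 gene called lower in fibroblast-like nuclei (9.07% of all measured genes) and in T or NK lymphocyte-like nuclei (14.5%), PPARA the 1 in lymphatic endothelial-like nuclei (7.94%) and ECHS1 the 1 in dendritic-like nuclei (14.5%). The 2 called lower were PPARD and ESRRA in pericyte-like nuclei (9.96%) and ACSL1 and PPARD in Schwann or neural-like nuclei (9.63%). No gene was called lower in vascular endothelial-like (7.98%) or macrophage-like nuclei (6.48%). The median log2 ratio of the pathway genes lay between 0.19 and 0.54 over the 8 classes, and that of all measured genes between -0.04 and 0.07. Summed over all 28 genes the level was 1303 CPM in WT against 1942 CPM in TG fibroblast-like nuclei, a ratio of 1.49, while the same sum in cardiomyocyte-like nuclei had a ratio of 0.881.

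The genes called higher in at least 6 of the 8 classes were CPT1A, CPT1B, ACADVL, ACADL, ACADM, HADHA, HADHB and ACAA2, enzymes of the carnitine shuttle and of steps on long and medium chains. ACSL1 and CPT2, which also serve long chains, were called higher in 2 classes and in 1 class. SLC25A20, another gene of the carnitine shuttle, was called higher in 1 class. ACADM was called higher in all 8, with 71.1 CPM in WT against 253 CPM in TG fibroblast-like nuclei, a ratio of 3.56 (3.26 to 3.90). In vascular endothelial-like nuclei it was at 86.4 and 221 CPM, in macrophage-like nuclei at 117 and 277 CPM, and in T or NK lymphocyte-like nuclei at 92.6 and 268 CPM. ACADVL and HADHB were called higher in the same 8 classes, with ratios between 1.70 and 3.57 for ACADVL and between 1.93 and 2.53 for HADHB. HADHA passed the rule in 7 classes and stood at 103 and 152 CPM, a ratio of 1.47, in the remaining Schwann or neural-like nuclei. ACAA2 was at 28.8 and 65.2 CPM in fibroblast-like nuclei and at 17.0 and 50.2 CPM in macrophage-like nuclei. ACADL ranged most, from a ratio of 1.11 in dendritic-like to 4.6 (3.47 to 6.13) in lymphatic endothelial-like nuclei, where it was at 16.7 and 76.6 CPM. The RefSeq span of ACADVL overlaps those of DLG4 by 501 bases and DVL2 by 69 bases, and that of HADHB holds a pseudogene of 980 bases. RefSeq spans were matched by symbol alone, so whether these overlaps affect the counts is not known. The same limit holds for PPARGC1A, whose span overlaps the long non-coding RNA genes LOC110261971 and LOC110261972 by 5886 and 12341 bases. Spans of ACADSB, ECI2, ETFDH and ESRRA overlap other genes by 249 bases or less.

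In TG several of these genes lay at nearly the same level in unrelated classes. Over fibroblast, vascular endothelial, lymphatic endothelial, macrophage and T or NK lymphocyte-like nuclei of TG, ACADM lay between 221 and 277 CPM, a range of 1.25-fold, against 71.1 to 117 CPM and 1.64-fold in WT. ACADVL lay between 63.1 and 79.8 CPM in TG, a range of 1.27-fold, against 18.0 to 38.7 CPM and 2.14-fold in WT. ACADL narrowed from a 5.89-fold range in WT to 1.73-fold in TG. Not every gene did so, since PPARD widened from 2.93-fold to 8.18-fold and ETFDH from 1.44-fold to 2.05-fold. Over 26 genes the median range was 2.09-fold in WT and 1.88-fold in TG. Cardiomyocyte markers also differed in this over the same classes. MYH7 lay between 946 and 1588 CPM in WT and between 3446 and 4246 CPM in TG. RYR2 spread from 295 to 4891 CPM in WT and from 501 to 7349 CPM in TG. The part of heart muscle RNA in the even levels of pathway genes was not tested.

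Another 8 genes measured in all of these classes were called higher in none of them. They were ACADS, ACADSB, ECHS1, HADH, ACAT1, DECR1, ETFA and PPARA, most of which act on short chains, on unsaturated chains or in electron transfer. ACADS was at 42.5 and 40.6 CPM in fibroblast-like nuclei and in macrophage-like nuclei at 33.1 and 27.1 CPM, with overlapping intervals in each. ETFA was at 116 and 114 CPM in fibroblast-like nuclei, and its ratios lay between 0.866 and 1.47 over the 8 classes. ECHS1 was called lower in dendritic-like nuclei (84.9 and 48.0 CPM) and PPARA in lymphatic endothelial-like nuclei (24.98 and 14.6 CPM). The ECHS1 call was lost at a Leiden resolution of 0.5 (log2 ratio -0.30), with nuclei weighted equally (-0.55) and after the library-wide profile was taken off (-0.91). The PPARA ratio turned to a log2 of 0.50 at a Leiden resolution of 0.5 and 0.37 with mixed nuclei counted in their best class, and its call was lost on thinning (-0.16) and with nuclei weighted equally (-0.39). ACSL1, lower in cardiomyocyte-like nuclei of TG, was called higher in fibroblast-like nuclei (41.2 and 65.0 CPM, a ratio of 1.58) and macrophage-like nuclei (64.6 and 113 CPM, 1.75). At a Leiden resolution of 0.5 its log2 ratios were -0.06 and 0.07 in these classes, and with mixed nuclei counted in their best class 0.07 in both. The fibroblast-like call was also lost with TMM factors (0.52) and at a resolution of 2 (0.47). The remaining genes, SLC25A20, CPT2, CRAT, ECI2, ETFDH and PPARGC1A, were called higher in 1 to 4 classes. CRAT was called in fibroblast, vascular endothelial, macrophage and pericyte-like nuclei, with ratios between 1.55 and 1.63.

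**Figure D4:**
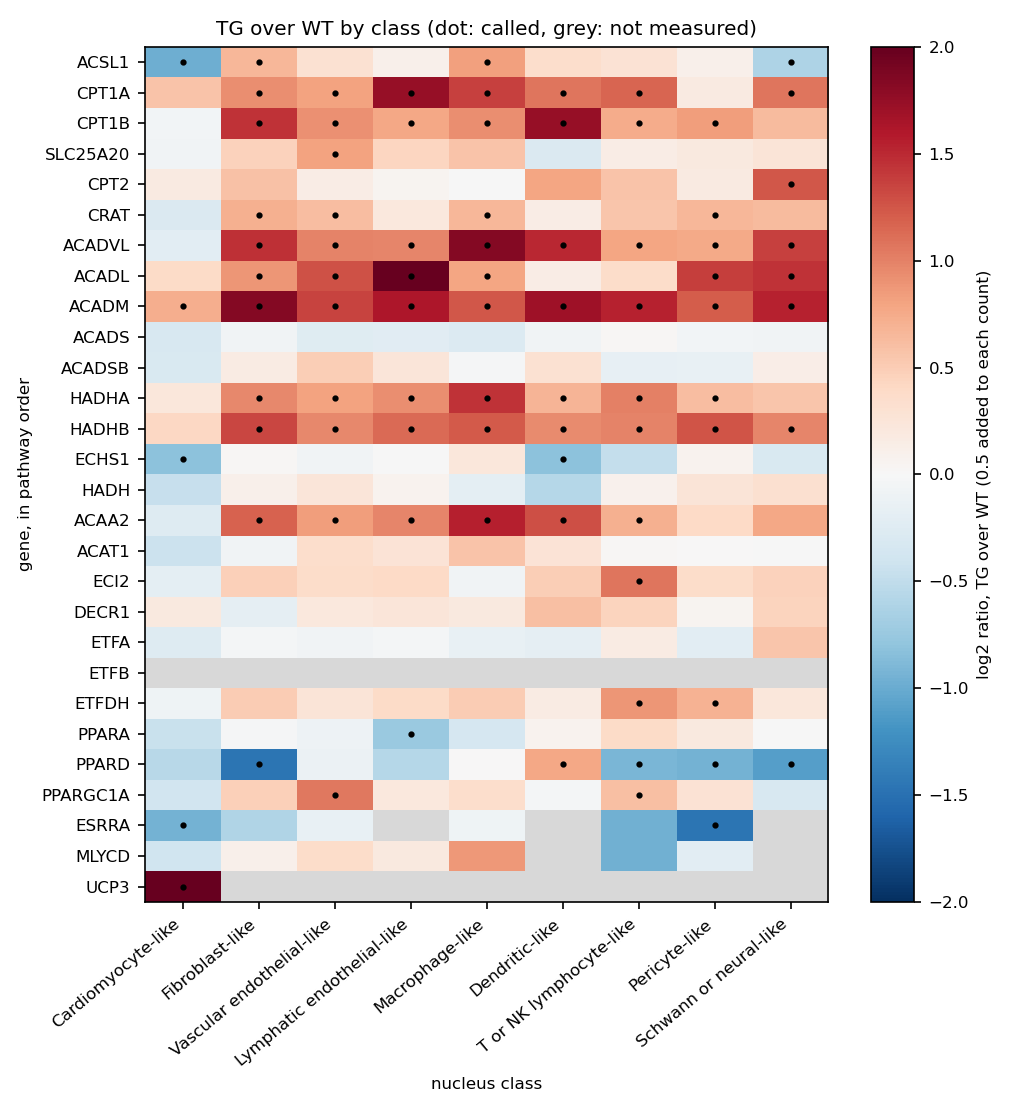
Log2 ratio of TG over WT for each gene in pathway order (down) and each nucleus class (across), with dots at the calls and grey where fewer than 20 UMIs were counted. ACADVL, ACADM and HADHB carry a dot in each of the 8 classes outside cardiomyocyte-like nuclei, while the rows of ACADS, HADH, ACAT1 and ETFA carry none.

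Transcripts of heart muscle were present in every class, and outside cardiomyocyte-like nuclei all 8 classes had a higher sum of them in TG. Of the 9 markers found, 9 were higher in TG in fibroblast, vascular endothelial, macrophage, T or NK lymphocyte and pericyte-like nuclei, 8 in dendritic-like, 7 in Schwann or neural-like and 6 in lymphatic endothelial-like nuclei, where the ratios ran from 0.740 to 4.14. In fibroblast-like nuclei they summed to 3010 CPM in WT against 10016 CPM in TG, and their ratios ran from 2.09 to 4.47. In macrophage-like nuclei they summed to 2822 and 8981 CPM with ratios from 2.00 to 4.05, and in vascular endothelial-like nuclei to 3512 and 8263 CPM with ratios from 1.29 to 3.02. None of the 9 was at 0 in any class. In T or NK lymphocyte-like nuclei, where the markers summed to 12196 and 19647 CPM, that class's own markers summed to 5581 CPM in WT against 2195 CPM in TG. In pericyte-like nuclei the cardiomyocyte markers summed to 15070 and 20121 CPM and the pericyte markers to 3396 and 1503 CPM, while smooth muscle markers stood there at 2496 and 2343 CPM. The pericyte-like ratios therefore compare clusters of unlike makeup. Fibroblast-like nuclei held the markers at a median of 8.76% of their cardiomyocyte level in WT (1.65% to 37.4%) and 30.1% in TG (4.83% to 178%). The pathway genes there had medians of 50.7% and 79.1%. Of the 28 pathway genes, 19 lay above the highest marker in WT and 6 in TG. In fibroblast-like nuclei 21 of the 26 measured pathway genes had ratios below the lowest marker, among them 11 of the 13 genes highest in cardiomyocyte-like nuclei in both libraries. PPARGC1A and PPARA, for example, had ratios of 1.39 and 0.979. The 5 genes within the range of the markers were ACADM (3.56), ACADVL (2.75), CPT1B (2.74), HADHB (2.53) and ACAA2 (2.26). In macrophage-like nuclei 20 of 26 lay below the lowest marker and 6 within the range, and in vascular endothelial-like nuclei 12 of 26 lay below it and 14 within. In WT the pathway genes stood at a larger median share of their cardiomyocyte level than the markers in each of these classes. These are medians, and single genes need not follow them. The part of heart muscle RNA in the ratios of the pathway genes was not tested.

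**Figure D5:**
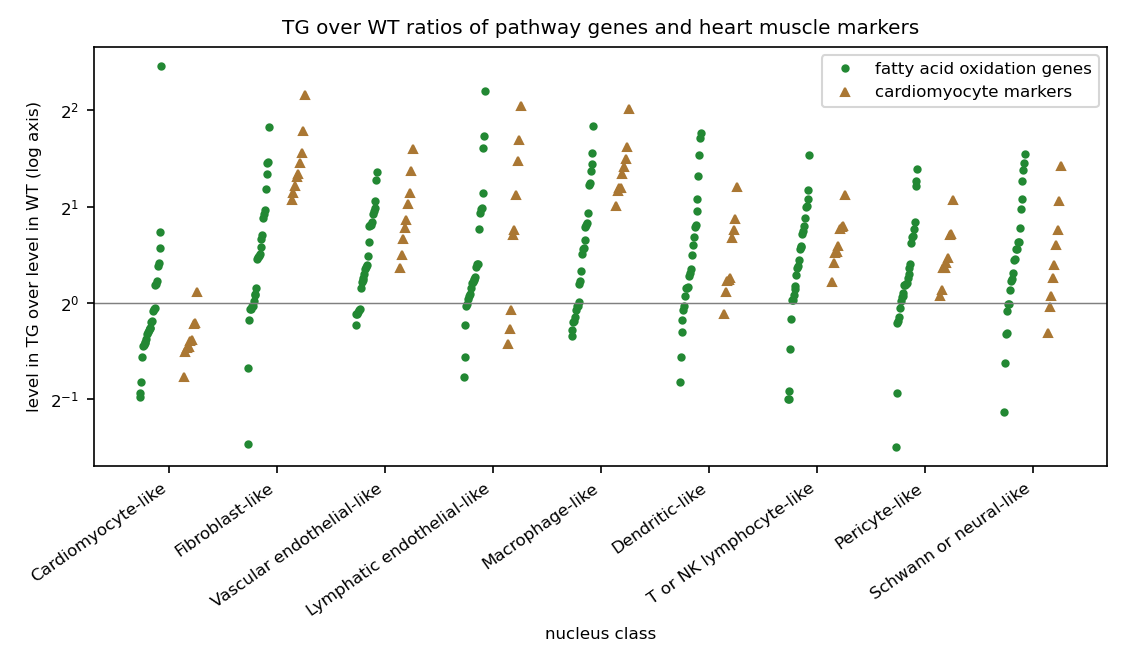
Level in TG over level in WT on a log axis for the measured fatty acid oxidation genes (green circles) and the 9 cardiomyocyte markers (brown triangles) in each class, sorted within each group. In fibroblast-like nuclei the markers lie between 2.09 and 4.47, and the pathway genes spread from 0.361 to 3.56.

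The ratios were also computed with a library-wide profile taken off each class, at the median of the shares that these markers gave. The median share was 12.4% of WT and 39.8% of TG UMIs in fibroblast-like nuclei and 12.3% and 36.6% in macrophage-like nuclei, and it reached 78.5% in TG pericyte-like nuclei. Markers above the median are not fully removed by it. MYH7 (4246 and 2829 CPM), MYL2 and TNNT2 stood higher in TG fibroblast-like than in TG cardiomyocyte-like nuclei, while the other markers stood lower. How much heart muscle RNA stayed in the ratios below was not tested. After it, 9 of 22 measured genes were called higher in fibroblast-like nuclei (21.5% of all genes measured after it), 10 of 23 in macrophage-like (17.3%), 7 of 22 in lymphatic endothelial-like (12.5%) and 8 of 24 in vascular endothelial-like nuclei (12%). The counts were 7 of 18 in T or NK lymphocyte-like (17.5%), 6 of 15 in pericyte-like (18.8%) and 5 of 16 in dendritic-like nuclei (20.1%). In Schwann or neural-like nuclei 4 of 12 were called higher, near the 29.1% of all genes. ACADM kept log2 ratios of 2.00 in fibroblast-like, 1.32 in macrophage-like and 1.38 in vascular endothelial-like nuclei, and in pericyte-like nuclei its 0.98 no longer passed the rule. ACADVL kept 1.86, 2.34 and 1.21, and CPT1A 1.20, 1.60 and 1.05. CPT1B no longer passed the rule, at 1.16, 0.28 and 0.52. HADHB kept 0.91 in fibroblast-like and 0.99 in macrophage-like nuclei, was no longer called at 0.46 in vascular endothelial-like nuclei and turned to -0.05 in T or NK lymphocyte-like nuclei.

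The vascular endothelial-like counts depended on the clustering. That class held 1213 WT and 2754 TG nuclei. With each library clustered on its own, 3 of 26 genes were called higher and 6 lower, where 20.4% and 14.2% of all genes were. At a Leiden resolution of 0.5 the count called higher was 5 (12.9% of all genes), and with mixed nuclei counted in their best class it was 4 (13.4% of all genes). With libraries clustered on their own, the share of pathway genes called higher was thus below that of all genes. ACADM was higher under each of these, at log2 ratios of 0.96, 1.23 and 1.23, and CPT1A at 1.18, 0.61 and 0.60. HADHB reached -0.04 and PPARGC1A -3.33 with libraries clustered on their own.

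Other genes of fatty acid metabolism in cardiomyocyte-like nuclei moved list by list. Of 15 genes for uptake, binding and activation, 6 were called higher and 0 lower, where 25% of all measured genes of the class were called higher and 8.81% lower. The 3 with the highest interval bounds were FABP4 (2.48 and 18.3 CPM) and FABP5 (5.48 and 36.8 CPM), which bind fatty acids in fat cells and endothelium, and GPIHBP1 (0.279 and 1.64 CPM), which anchors lipoprotein lipase to capillaries. Of 10 vascular endothelial markers, 8 were also higher in these TG nuclei, with a median log2 ratio of 0.91, and their part in the uptake genes was not tested. CD36, the fatty acid translocase, was at 1644 and 1787 CPM, and FABP3, the heart's binding protein, at 187 and 171 CPM. The 8 measured genes of malonyl-CoA synthesis and AMPK and the 2 of carnitine uptake and synthesis held no call.

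Calls in further lists are read against the same 25% of all genes called higher and 8.81% called lower. In the list of ketone bodies and thioesterases, BDH1, the hydroxybutyrate dehydrogenase, was called lower at 92.0 and 33.1 CPM (0.360), and so was ACSS1, a mitochondrial acetyl-CoA synthetase, at 47.7 and 28.7 CPM. Of 17 other mitochondrial acyl-CoA enzymes, 5 were called lower and 0 higher. The leading 3 serve branched-chain amino acid or propionate breakdown, BCKDHB (429 and 233 CPM), IVD (66.8 and 36.5 CPM) and PCCA (361 and 208 CPM). Of 19 nuclear receptors and coregulators, PPARG was called higher and 4 lower. Among the lower ones, PPARGC1B, a relative of PPARGC1A, was at 99.5 and 48.7 CPM, ESRRG, a relative of ESRRA, at 1129 and 640 CPM, and LPIN1, a coactivator of PPARA, at 241 and 153 CPM.

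Of 10 measured known targets of the PPAR receptors, 2 were called higher and 0 lower in cardiomyocyte-like nuclei, a share near the 25% of all genes called higher, and their median log2 ratio was 0.05 against 0.08 over all genes. PDK4, which holds pyruvate back from oxidation, was at 49.4 CPM in WT against 372 CPM in TG, a ratio of 7.54 (7.28 to 7.81), and ANGPTL4, an inhibitor of lipoprotein lipase, at 2.63 and 6.70 CPM. PDK4 was also called higher in fibroblast-like (140 and 264 CPM), vascular endothelial-like (65.7 and 199 CPM) and macrophage-like nuclei (9.11 and 84.8 CPM). The cardiomyocyte markers stood in these classes at medians of 8.76%, 10.5% and 8.72% of their cardiomyocyte level in WT. In TG the medians were 30.1%, 25.1% and 27.7%. The part of heart muscle RNA in these PDK4 calls was not tested. In the uptake list, 9 of 14 measured genes were called higher and 1 lower in vascular endothelial-like nuclei (12.7% and 7.98% of all measured genes). In fibroblast-like nuclei 7 of 14 were called higher and 0 lower, where 17.9% and 9.07% of all measured genes were. The part of heart muscle RNA in the calls of the uptake list was not tested either. The list of other mitochondrial acyl-CoA enzymes had a median log2 ratio of -0.15 in fibroblast-like nuclei, with 0 of 17 called higher and 4 lower, in the class where 10 of the 26 pathway genes were called higher.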

How the data were processed

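Nuclei of the left ventricular free wall were profiled in 1 WT and 1 TG library, so no comparison has replicates. The deposited matrices hold whole-number UMI counts per gene and barcode, not normalized. They were made with Cell Ranger 5.0.0 per the file headers, while the submitters' processing notes name Cell Ranger 3.1.0, Seurat 3.1.1 and the pig build Sscrofa11.1. Whether the counting used strand, and how barcodes were filtered, is not given in the sources used here. The lowest barcode held 500 UMIs in WT and 1972 in TG, out of 127126477 and 89324966 UMIs in all, and 0 columns were left unused.

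Kept nuclei had 500 genes or more and no more than 5% of UMIs from 13 mitochondrial genes, namely 16725 of 18251 and 14939 of 15000. Both libraries were clustered together without batch correction (scanpy 1.11.5, 2000 variable genes, 30 principal components, 15 neighbours, Leiden resolution 1, leidenalg 0.10.2). A class name needed at least 60% of its markers, and at least 3, each at 20 CPM or more and raised over other clusters. These thresholds were set after the clusters were seen. No doublet caller was run, and clusters with markers of unrelated classes, which may hold doublets, were set aside.

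UMIs were summed per class and library and divided by the nuclear-encoded total. Levels carry exact Poisson intervals, ratios conditional binomial intervals and shares Clopper-Pearson intervals, all at 95%. They cover counting error only. Log2 ratios have 0.5 added to each count. TMM factors came from edgeR 4.0.16 under R 4.3.3, and no edgeR test was run. The script for levels and calls was tested on simulated data. Alternatives covered scaling, filters, depth, clustering, mixed nuclei, free RNA and the fold for a call.

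Genes named were all list members found, PDK4, and of each wider list up to 3 genes called higher and up to 3 called lower in cardiomyocyte-like nuclei by the interval bound nearest to 1. Some results of the wider lists are not reported here. CD36 and FABP3 were added after their values were seen. The members and the lists were chosen with earlier results of these data known. Gene positions are RefSeq's on Sscrofa11.1, matched by symbol for 28 of 28 genes. No sequence was used here.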

Additional observations from a re-analysis of the deposited data

Results flagged for a closer look

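ACSL1 and PPARD were called in opposite directions in different nucleus classes. The differences between classes were not tested, since each genotype is 1 library. ACSL1 had a TG to WT ratio of 0.507 in cardiomyocyte-like and 0.649 in Schwann or neural-like nuclei, against 1.58 in fibroblast-like and 1.75 in macrophage-like nuclei. PPARD had ratios of 0.361 in fibroblast-like, 0.530 in T or NK lymphocyte-like, 0.520 in pericyte-like and 0.456 in Schwann or neural-like nuclei, against 1.72 in dendritic-like nuclei. In the dendritic-like cluster the dendritic markers summed to 2607 CPM in WT against 527 CPM in TG, and the macrophage markers to 495 and 2652 CPM. PPARD was at 107 and 108 CPM in macrophage-like nuclei. At a Leiden resolution of 0.5 the log2 ratio of ACSL1 was -0.061 in fibroblast-like and 0.070 in macrophage-like nuclei, so neither higher call stood. The PPARD log2 ratio in dendritic-like nuclei was -0.39 with nuclei thinned to 1000 UMIs and 0.057 at that resolution, which leaves no higher call. The lower ACSL1 call in Schwann or neural-like nuclei was lost on thinning (-0.67), with the most abundant gene left out (-0.56) and with nuclei weighted equally (-0.087). The lower PPARD calls in T or NK lymphocyte-like, pericyte-like and Schwann or neural-like nuclei were lost with the library-wide profile taken off. After it 4.01%, 2.01% and 0.204% of all genes were called lower in these classes, against 14.5%, 9.96% and 9.63% before. A lost lower call there does not show that the difference went away.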

How the results depend on the processing

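No paired analysis was possible because each genotype has 1 library. Counts are of genes called higher or lower in TG, and where a value moved the cause was not tested. The share of all genes called was not computed at a fold of 2, on thinning, with TMM factors or under the other scalings and filters. Counts under those settings show how calls moved and are not set against all genes. In cardiomyocyte-like nuclei the 2 called higher became 1 with nuclei thinned to 1000 UMIs (UCP3 then falls short of 20 UMIs), 1 at a fold of 2 and 5 with counts scaled to the other pathway genes, an alternative chosen after seeing the data like that of cluster 2 alone. The 3 called lower became 0 at a fold of 2. At that fold the counts called higher were 5 in fibroblast-like, 3 in vascular endothelial-like, 4 in lymphatic endothelial-like, 6 in macrophage-like, 5 in dendritic-like, 4 in T or NK lymphocyte-like and 3 in pericyte-like nuclei. Called lower at it were 0 in dendritic-like, T or NK lymphocyte-like and lymphatic endothelial-like nuclei, with 1 each in pericyte-like and Schwann or neural-like nuclei. Thinning gave 3 higher and 0 lower in dendritic-like and in Schwann or neural-like nuclei, 1 lower in pericyte-like, 0 lower in T or NK lymphocyte-like nuclei and a PPARD log2 ratio of -0.39 in dendritic-like nuclei. TMM factors gave 2 lower in dendritic-like and in lymphatic endothelial-like nuclei, and 2 lower in dendritic-like nuclei also came with at least 2000 UMIs per nucleus or no minimum of UMIs. Leaving out the most abundant gene, or weighting nuclei equally, gave 1 lower in pericyte-like and in Schwann or neural-like nuclei. Leiden resolution 0.5 gave 5 higher in vascular endothelial-like nuclei (12.9% of all genes) and 0 lower in dendritic-like nuclei (14.1%). It gave 3 lower in fibroblast-like (10.2%) and 1 lower in pericyte-like nuclei (8.3%). Resolution 2 also gave 1 lower in pericyte-like nuclei, and the share of all genes was not computed at it. Resolution 0.5 reversed the log2 ratios of PPARGC1A in dendritic-like (0.62) and fibroblast-like nuclei (-1.31), ACSL1 in fibroblast-like (-0.061) and PPARA in lymphatic endothelial-like nuclei (0.50). With libraries clustered on their own, vascular endothelial-like nuclei had 3 higher and 6 lower (20.4% and 14.2% of all genes). Under that clustering lymphatic endothelial-like nuclei had 2 lower (8.91%) and macrophage-like nuclei 1 lower (7.65%). Reversed there were PPARGC1A in lymphatic endothelial-like nuclei (-1.70) and, in vascular endothelial-like nuclei, ACSL1 (-1.15), CPT1B (-0.41), SLC25A20 (-0.27), HADHB (-0.038), ECI2 (-0.72), ETFDH (-0.68) and PPARGC1A (-3.33). That clustering gave no value for dendritic-like, T or NK lymphocyte-like, pericyte-like or Schwann or neural-like nuclei. Counting mixed nuclei in their best class gave 4 higher in vascular endothelial-like nuclei (13.4% of all genes) and a PPARA log2 ratio of 0.37 in lymphatic endothelial-like nuclei. With the library-wide profile subtracted, 5 were higher and 0 lower in dendritic-like nuclei (20.1% and 9.44% of all genes). After it 0 were lower in T or NK lymphocyte-like (4.01%), lymphatic endothelial-like (5.4%), pericyte-like (2.01%) and Schwann or neural-like nuclei (0.204%). With so few genes of any kind called lower, these counts of 0 say little about the pathway. The HADHB log2 ratio reached -0.050 in T or NK lymphocyte-like nuclei. Counts not named stayed within 1.5 times of those reported, and no other called ratio changed direction. Depth limits ESRRA, MLYCD and UCP3, which fell short of 20 UMIs in some classes, and ETFB, which did so in all 9.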

Other observations

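A set-aside cluster with fibroblast and adipocyte transcripts, of 849 WT and 445 TG nuclei, entered no comparison. Its levels were 264 CPM in WT and 232 CPM in TG for ACSL1, 130 and 265 CPM for ACADM and 142 and 283 CPM for HADHB. PPARGC1A was at 356 and 426 CPM there and PPARD at 26.0 and 14.5 CPM. UCP3, the rarest of the genes called in cardiomyocyte-like nuclei, had 3 UMIs in WT and 13 UMIs in TG in this cluster.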
